A study of Mus musculus with 4 samples.

Results

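The splicing factor and hnRNP genes are 55 of the 24943 genes counted in 4 mouse lymphoma libraries. The rule reads gene symbols alone, taking every gene named Srsf, Snrp, Sf3a, Sf3b, Hnrnp or U2af followed by family letters or numbers. It uses no expression value, but this family was picked with earlier results of these data known. They comprise 11 SR protein genes, 12 Snrp genes, 9 Sf3a and Sf3b genes, 3 U2af genes and 20 Hnrnp genes. Of the 55, 53 reached 1 CPM (counts scaled to a common library size) in at least 1 library, and 52 reached it in every library. The members that did not pass, Snrpn and Srsf12, are described with their classes.

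The series addresses the part played by a TP63 fusion in the formation of mouse lymphoma. Poly(A) RNA was sequenced in 4 samples of cells from enlarged, tumour-bearing spleen, after lysis of red blood cells and straining. Each sample is labelled with lymphoma as its tissue, spleen cells as its cell type and a transgenic genotype. In accession order they are called lymphomas 1 to 4, and their titles name them GW19, GW95, GW255 and GW328. Because every label is shared there is 1 group, no second condition to test against, and each comparison below sets one library against the others. The labels give no transgene, promoter, strain or age and describe no sort for tumour cells, so tumour cells and the remaining spleen cells contribute to each library. Nothing in them ties each sample to an animal of its own, so part of the spread may be technical. In such bulk samples, fewer cells of a type and less RNA per cell cannot be told apart.

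Pre-mRNA splicing is carried out by the spliceosome, which is built from small nuclear ribonucleoproteins (snRNPs), most of which hold a small nuclear RNA, a ring of Sm proteins and further proteins of their own. U2AF binds the 3′ splice site and helps to bring in the U2 snRNP, whose SF3A and SF3B complexes hold it at the branch site. SR proteins and hnRNPs bind exons and introns and shift the choice of splice sites, and the genes SF3B1, SRSF2 and U2AF1 are known as recurrent targets of mutation in human blood cancers.

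The libraries held between 7773546 and 9602413 counts. CPM were computed with TMM-scaled library sizes, whose factors ran from 0.838 in lymphoma 1 to 1.17 in lymphoma 4, and the biological coefficient of variation over the 4 libraries was 0.839. The libraries differed in the cell type markers they carried. The summed level of 10 B cell markers was 69.3, 1523, 4441 and 6081 CPM in lymphomas 1 to 4, and that of 10 T cell markers was 5661, 4369, 881 and 897 CPM. Of the 10 B cell markers, 9 were lowest in lymphoma 1. The T cell receptor component Cd3e had 236, 207, 0.589 and 87.7 CPM, near the floor in lymphoma 3. Lck and Zap70, also T cell markers, had 315 and 482 CPM in lymphoma 3. The summed level of 10 proliferation markers was 2871, 2151, 3552 and 453 CPM, with 9 of the 10 lowest in lymphoma 4. In the same order, 6 neutrophil markers summed to 22.7, 172, 94.9 and 673 CPM, 6 macrophage and monocyte markers to 129, 363, 162 and 694 CPM and 6 markers of stroma and endothelium to 63.4, 80.6, 135 and 153 CPM. Pecam1 made up most of the stroma and endothelium sum, at 46.7, 66.8, 124 and 146 CPM. Pdgfrb ran the other way, at 16.2, 11.6, 10.7 and 0.330 CPM. Every neutrophil and macrophage marker was highest in lymphoma 4. The 9 immediate early and stress genes summed to 493, 3811, 380.2 and 3152 CPM. Lymphomas 1 and 2 resembled each other in 1 respect. Over the 71 genes that had 20 CPM or more in lymphoma 1 and over 20-fold less in lymphomas 3 and 4, lymphoma 2 held a median of 0.669 of the lymphoma 1 level, with quartiles of 0.645 and 0.712. Over the 53 members the median ratio of lymphoma 2 to lymphoma 1 was 0.801, with quartiles of 0.750 and 0.998. Over all genes that median was 1.03, with quartiles of 0.826 and 1.49. Whether these libraries share cells was not tested, and counts are therefore also given without one or the other.

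Most splicing factor genes were lowest in lymphoma 4. Of the 53 members, 44 (83.0%) had their lowest CPM there, against 33.2% of the 13543 genes that passed the same filter. In 22 members (41.5%), lymphoma 4 lay at least 2-fold below the nearest other library, against 9.2% of all genes. Over the 10188 genes with a mean of 5 CPM or more, 38.8% were lowest in lymphoma 4 and 12.2% lay 2-fold below there. The median difference of lymphoma 4 from the mean of the other 3 libraries, on the log2(CPM + 1) scale, was -1.12 over the members and -0.00 over all genes, and 49 of the 53 members were below 0. The Snrp genes showed the lowest class median at -1.92, followed by the Sf3a and Sf3b genes at -1.36, the U2af genes at -1.10, the SR protein genes at -0.96 and the Hnrnp genes at -0.82. Lymphoma 4 was lowest for 47 members without lymphoma 1, against 36.2% of all genes, and for 44 without lymphoma 2 or without lymphoma 3, against 33.8% and 44.3%. In 17 members, 20% or more of the sequence is shared with other genes, so their levels are less certain. They include Srsf2, Srsf3, Srsf5, Hnrnpab, Hnrnpa3, Hnrnpk, Hnrnpm, Snrpa, Snrpe and U2af2. Lymphoma 4 was lowest for 30 of the 36 members of which less than 20% of the sequence is shared with other genes. Proliferation markers were lowest, and neutrophil and macrophage markers highest, in the same library, and their part in the result was not tested.

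**Figure D1:**
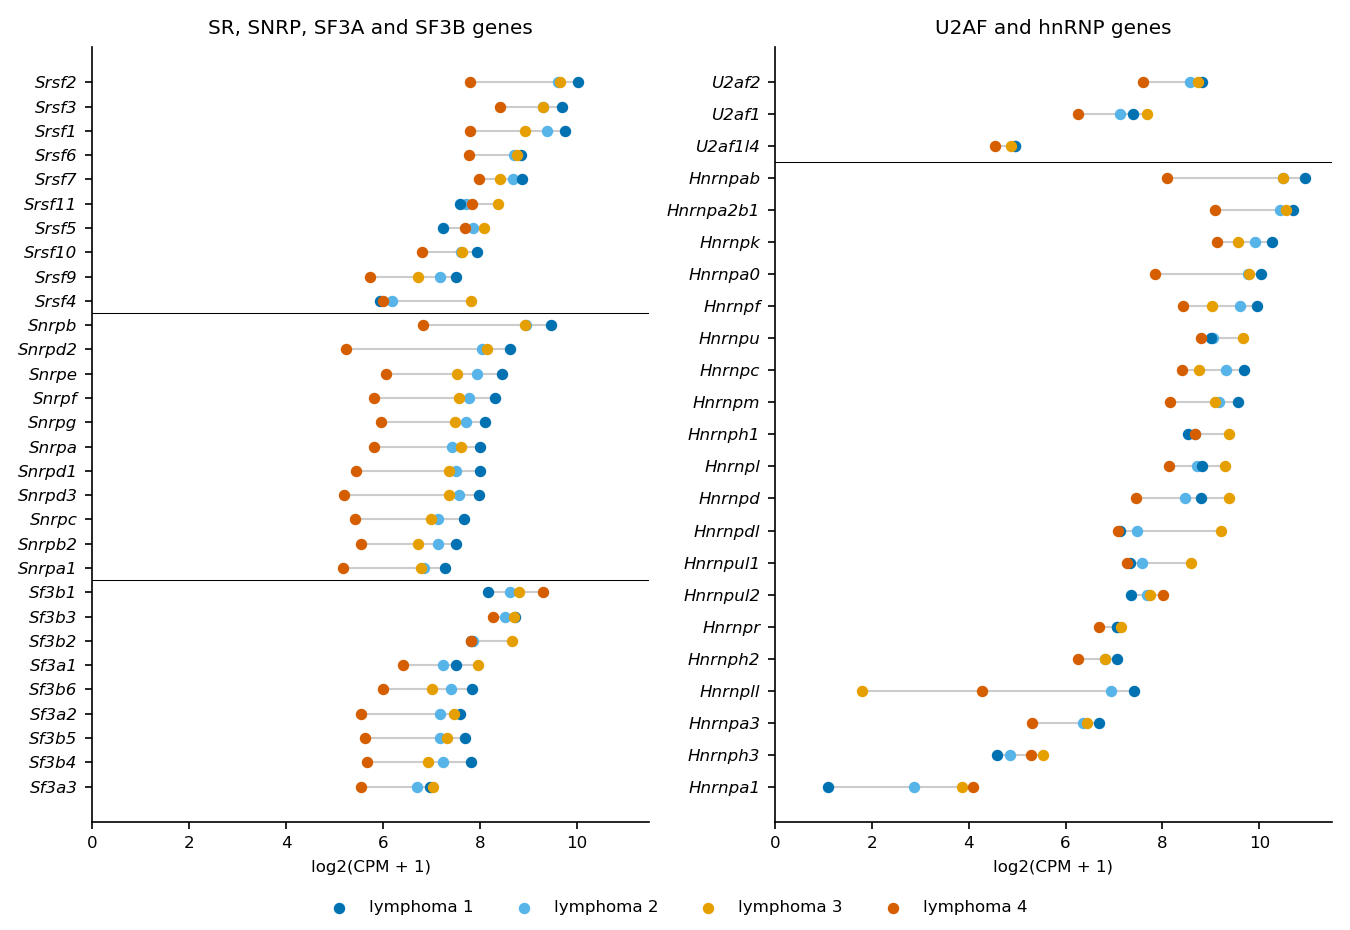
Expression of the 53 members that passed the filter, as log2(CPM + 1) on the horizontal axis, 1 row per gene and 1 point per library, with a grey line from the lowest to the highest library. Lymphoma 4 is the lowest point for 44 of the 53 genes and lymphoma 1 the highest for 35.

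Lymphoma 1 was most often the highest. It held the highest CPM of 35 members (66.0%), against 29.4% of all genes, and lymphoma 3 held that of 15 (28.3%), against 30.4%. Lymphoma 4 was highest for 3 members (5.66%; Hnrnpa1, Hnrnpul2 and Sf3b1), against 34% of all genes. Hnrnpa1, whose counts are not read as its expression for reasons given with its values, is among these 3 and among the members lowest in lymphoma 1 and those with a 4-fold spread. Lymphoma 2 was highest for 0 members, against 6.32% of all genes, and lowest for 0, against 5.07%. Lymphoma 1 was lowest for 8 members (15.1%), against 35.7% of all genes, and lymphoma 3 for 1 (1.89%; Hnrnpll), against 21.3%. Few members stood apart by 2-fold other than below in lymphoma 4, and such gaps were also uncommon among all genes. A 2-fold gap above the nearest library was found in 0 members in lymphomas 1, 2 and 4, against 0.0222%, 0.096% and 8.15% of all genes, and in 2 members in lymphoma 3 (3.77%), against 5.63%. A 2-fold gap below was found in 0 members in lymphoma 1, against 5.89%, and in 1 in lymphoma 3 (1.89%), against 3.22%. With plain library totals, lymphoma 3 was highest for 25 members and lymphoma 1 for 24. In the FPKM table, which differs from the counts in its quantification as well as its scaling, lymphoma 1 was highest for 27 and lymphoma 3 for 23. The shares of all genes highest in each library were not computed with library totals or FPKM. The counts under those settings therefore have no background beside them.

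With TMM scaling the members spread about as widely as all genes. A spread of 4-fold or more between the highest and lowest library, in CPM + 1, was found in 19 of 53 members (35.8%), against 35.7% of all genes, which is the background rate. That match depended on the setting: the count was 10 with library totals, against 36.8% of all genes, 19 with a pseudocount of 0.25 CPM, against 48.2%, and 18 in the FPKM table, against 24.9%. The median spread of the members was 2.93-fold, against 2.98-fold over all genes. The members and all genes differed in level, with median CPM of 252 and 17.8 in lymphoma 1 and 111 and 20.7 in lymphoma 4. Over genes with a mean of 5 CPM or more, 37.0% had a 4-fold spread. A spread of 8-fold or more was found in 2 members (3.77%; Hnrnpll and Snrpd2), against 16.3% of all genes. Without lymphoma 4 the count of 4-fold spreads was 3 of 53 (all genes 20.2%). It was 7 without lymphoma 1 (all genes 24.1%) and 19 without lymphoma 2 (all genes 35.35%). A spread of 2-fold or more was found in 41 members (77.4%), against 75.6% of all genes. The 19 were unevenly placed among the classes, with 10 of 11 Snrp genes, 3 of 9 Sf3a and Sf3b genes, 5 of 20 Hnrnp genes, 1 of 10 SR protein genes and 0 of 3 U2af genes.

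**Figure D2:**
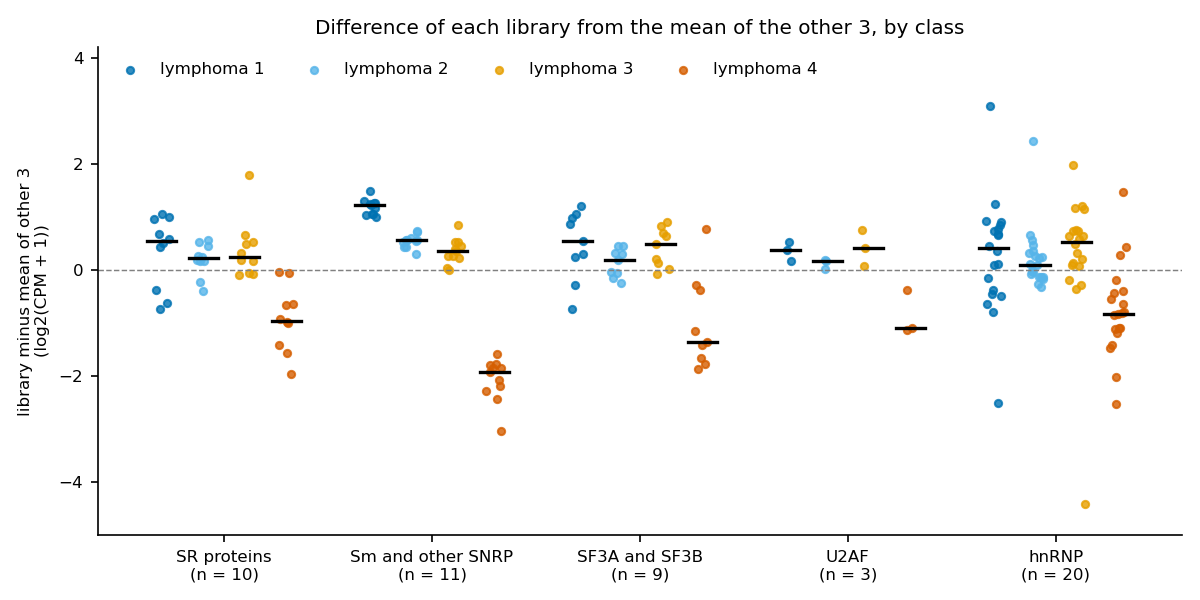
Difference of each library from the mean of the other 3 on the log2(CPM + 1) scale, by class, with 1 point per member and a bar at the class median. In lymphoma 4 the medians run from -0.82 for the Hnrnp genes to -1.92 for the Snrp genes.

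The sequence before the transcription start was compared for members that differed in their order of libraries. The promoters below are RefSeq sequences of GRCm38.p6, up to 250 bases before the start and trimmed at the first annotated exon of any gene. They show Snrpd2 and Hnrnpab, both low in lymphoma 4, Sf3b1, highest there, and Srsf4, highest in lymphoma 3. Capitals mark matches on either strand to CCGGAAG (the core of an ETS factor site), to the letters CCAAT, to the GC box GGGCGG or to the E-box CACGTG. A palindromic NRF1 site was searched as well, and none of these letter strings contains another.
Snrpd2 (chr7:19149588-19149721, plus strand): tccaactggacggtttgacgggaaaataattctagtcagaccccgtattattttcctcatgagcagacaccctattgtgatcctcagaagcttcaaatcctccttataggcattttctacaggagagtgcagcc
Hnrnpab (chr11:51606882-51607131, minus strand): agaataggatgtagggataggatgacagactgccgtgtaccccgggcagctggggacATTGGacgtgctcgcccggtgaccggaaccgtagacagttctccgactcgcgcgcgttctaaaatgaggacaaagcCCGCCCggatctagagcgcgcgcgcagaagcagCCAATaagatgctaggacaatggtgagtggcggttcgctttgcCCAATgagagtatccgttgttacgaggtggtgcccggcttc
Sf3b1 (chr1:55027482-55027728, minus strand): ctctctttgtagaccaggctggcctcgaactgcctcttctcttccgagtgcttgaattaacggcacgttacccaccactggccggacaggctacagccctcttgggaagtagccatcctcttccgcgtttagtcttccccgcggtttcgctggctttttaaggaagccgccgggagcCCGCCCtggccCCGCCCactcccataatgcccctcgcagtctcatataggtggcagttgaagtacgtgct
Srsf4 (chr4:131873387-131873616, plus strand): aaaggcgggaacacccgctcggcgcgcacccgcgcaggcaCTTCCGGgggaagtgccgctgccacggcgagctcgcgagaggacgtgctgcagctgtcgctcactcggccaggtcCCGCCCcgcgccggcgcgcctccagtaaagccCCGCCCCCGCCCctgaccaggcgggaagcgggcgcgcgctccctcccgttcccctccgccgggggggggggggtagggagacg
The Snrpd2 window held none of the 5 motifs, and that of Hnrnpab held 3 CCAAT boxes and 1 GC box. That of Sf3b1 held 2 GC boxes, and that of Srsf4 held 1 ETS core and 3 GC boxes. After trimming these windows had 134, 250, 247 and 230 bases in the same order, so their motif counts are not directly comparable. RefSeq promoters were matched for 48 of the 55 members. Over the whole 250 bases, the GC box occurred in 68.8% of member promoters, against 32.9% of all 27025 promoters of that length, and the ETS core in 31.2% against 7.05%. The CCAAT box occurred in 45.8% against 34.5%, the E-box in 6.25% against 6.05% and the NRF1 site in 0% against 0.781%. The comparison set includes promoters of genes silent in these libraries, and a match is only a match of letters.

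The Sm proteins form the ring that assembles on the small nuclear RNAs of the U1, U2, U4 and U5 snRNPs. All 7 genes of the ring had their lowest level in lymphoma 4 and their highest in lymphoma 1, and all 7 had a spread of at least 4-fold. Snrpd2 (Sm protein D2; chromosome 7, 19149722 to 19153542, plus strand of GRCm38) had the largest difference of the ring, with 392, 263, 281 and 36.5 CPM in lymphomas 1 to 4. Its lymphoma 4 level was -3.04 log2 units from the mean of the other libraries, and its whole spread was 10.5-fold around a mean of 243 ± 149 CPM (SD, n = 4). Snrpb (Sm proteins B and B′) had 707, 496, 487 and 112 CPM, a 6.25-fold spread. Lymphoma 4, a single library, lay 7.03-fold below the nearest other library for Snrpd2 and 4.31-fold below it for Snrpb. Lymphomas 2 and 3 lay close together for both genes.

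The other ring genes followed the same order of libraries at their ends. Snrpd3 had 252, 190.5, 164 and 35.7 CPM in lymphomas 1 to 4 and a spread of 6.88-fold. Snrpd1 had 257, 180.3, 165 and 42.6 CPM and Snrpe 353, 246, 183 and 65.5 CPM, with spreads of 5.93-fold and 5.33-fold. Lymphoma 2 lay between lymphomas 1 and 3 for these 3 genes. Snrpf had 317, 219.9, 189 and 55.2 CPM and Snrpg 273, 208, 178 and 61.2 CPM. For Snrpf, 89.5% of the 50-base windows of its longest coding transcript also occur in transcripts of other genes, so its counts are uncertain. The ratio of lymphoma 2 to lymphoma 1 hardly varied within the ring, with a median of 0.701 and quartiles of 0.695 and 0.730. The median was 1.03 over all genes and 0.669 over the 71 genes selected as high in lymphoma 1 and low in lymphomas 3 and 4.

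Levels can be compared between genes only per transcript length, for which the deposited FPKM were used. In every library Snrpg had the highest FPKM of the ring, at 1268, 1019.7, 1027 and 274 in lymphomas 1 to 4, and Snrpd1 the lowest, at 254, 214, 209 and 50.1. Snrpd2 came next in lymphomas 1 to 3, and below Snrpe in lymphoma 4, with 1107, 851, 977 and 118 FPKM. Snrpe had 861, 668, 549 and 166 FPKM, and Snrpb, Snrpd3 and Snrpf had 438, 430.1 and 297 FPKM in lymphoma 1 and 76.6, 56.8 and 57.5 in lymphoma 4. The ring proteins enter the snRNP together in equal number, whereas their transcripts differed several-fold in FPKM within each library. FPKM of short transcripts depend on the fragment length model. The CPM per kilobase of annotated exon came to 12.8% of the FPKM for Snrpg and 12.2% for Snrpd2, against a median of 74.4% over the members, so the order of these levels is uncertain.

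**Figure D3:**
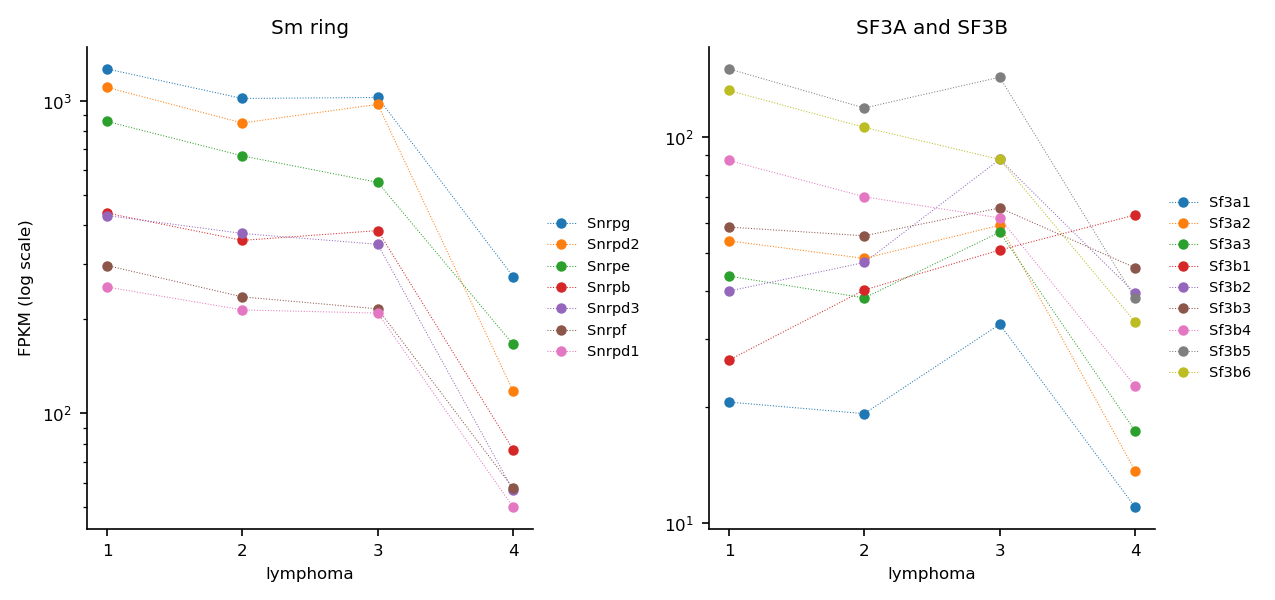
FPKM on a log axis in each library for the 7 Sm ring genes and for the Sf3a and Sf3b genes, where dotted lines join the values of 1 gene and imply no order of the libraries. The ring genes drop together in lymphoma 4, while Sf3b1 is at its highest there with 62.9 FPKM.

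The snRNP-specific Snrp genes followed the ring. Snrpa and Snrpc, which encode proteins of the U1 snRNP that recognises the 5′ splice site, had 255, 171, 194 and 55.4 CPM and 204, 139.6, 127 and 41.8 CPM in lymphomas 1 to 4. Snrpa1 and Snrpb2, whose proteins bind together on the U2 snRNP, had 154, 114, 109.8 and 35.4 CPM and 181, 141, 105 and 45.5 CPM. All 4 were highest in lymphoma 1, and in all 4 lymphoma 4 lay at least 2-fold below the nearest library, with spreads from 3.91-fold for Snrpb2 to 4.78-fold for Snrpc. Snrpn, the imprinted relative of Snrpb best known from brain, had 0 counts in all 4 libraries. A floor of 3 counts corresponds to 0.379, 0.335, 0.294 and 0.330 CPM. Its FPKM were at most 0.00108, and 34.1% of its exonic length lies in exons of other genes, Snurf among them, and how reads in shared exons were assigned is not given in the sources used here. With both the ring and the specific proteins, the 11 Snrp genes that passed took 0.280, 0.228, 0.232 and 0.0687% of all counts in lymphomas 1 to 4.

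SF3A and SF3B, the complexes of the U2 snRNP at the branch site, did not move as a block. Sf3a2 had 192, 144, 176 and 45.6 CPM, Sf3a3 124, 103, 129.8 and 45.5 CPM and Sf3a1 181, 151, 248 and 84.2 CPM in lymphomas 1 to 4. Lymphoma 4 was lowest for these 3 Sf3a genes, and at least 2-fold below the nearest library for Sf3a2 and Sf3a3. The small Sf3b subunits resembled the Snrp genes. Sf3b4 had 226, 151, 121 and 49.8 CPM, Sf3b5 206, 144, 159 and 48.5 CPM and Sf3b6 229.5, 169, 127 and 63.2 CPM, with the highest value in lymphoma 1 and the lowest in lymphoma 4 each time. For Sf3b4, 51.2% of the transcript's 50-base windows occur in transcripts of other genes.

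Sf3b1 ran against the rest of its class. Sf3b1, the subunit that encloses the branch-point adenosine and the most often mutated splicing gene of human myelodysplasia (chromosome 1, 54985169 to 55027481, minus strand of GRCm38), whose promoter is printed above, had 286, 391, 449 and 631 CPM in lymphomas 1 to 4. It was lowest in lymphoma 1 and highest in lymphoma 4, 0.77 log2 units above the mean of the other libraries, and its spread was 2.203-fold around 439 ± 145 CPM (SD, n = 4). The FPKM table gave the same order, at 26.5, 40.2, 51.0 and 62.9. Sf3b3, a scaffold of the complex, was highest in lymphoma 1 and lowest in lymphoma 4 like the small subunits, but was among the steadiest members, with 425, 365, 419 and 309 CPM and a 1.38-fold spread. Sf3b2 had 226, 231, 406 and 225 CPM, with lymphoma 3 above the other libraries, which lay within a narrow range. The share of all counts in the 9 genes was 0.176, 0.178, 0.237 and 0.176%, with no low value in lymphoma 4. Sf3b1 alone held 5738 of the 13660 counts of the class in lymphoma 4, against 2263 of 16586 in lymphoma 1. The other 8 genes were lowest in lymphoma 4.

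Among the U2AF genes, U2af2, the large subunit that binds the polypyrimidine tract, had 451, 379, 426 and 194 CPM in lymphomas 1 to 4. U2af1, the small subunit that contacts the AG of the 3′ splice site, had 166, 139, 203 and 75.3 CPM. Both were lowest in lymphoma 4, by -1.10 and -1.14 log2 units from the mean of the other libraries, and neither lay 2-fold below its nearest library. The relative of the small subunit U2af1l4 had 29.9, 29.9, 28.4 and 22.2 CPM, the smallest spread of all members at 1.33-fold, and 15.0, 20.2, 11.3 and 13.0 FPKM, whose order differs from that of its CPM. Of its 50-base windows 97.2% occur in other genes' transcripts. So do 59.4% of those of U2af1 and 29.9% of those of U2af2, so the levels of all these genes are uncertain.

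SR proteins bind exonic enhancers through an RNA recognition motif and recruit splicing factors through their arginine-serine domain. Srsf2 (chromosome 11, 116849901 to 116853094, minus strand of GRCm38) had 1038, 783, 809 and 222 CPM in lymphomas 1 to 4, with a mean of 713 ± 347 CPM (SD, n = 4). It was the only SR protein gene with a 4-fold spread (4.65-fold), with lymphomas 1 to 3 in a narrow range and lymphoma 4 far below. Srsf1, the founding SR protein, had 868, 673, 489 and 223 CPM, and lymphoma 4 again lay at least 2-fold below the nearest library. Srsf3, the smallest SR protein, which also takes part in mRNA export, had 826, 634, 632 and 343 CPM in lymphomas 1 to 4. Srsf7, its close relative, had 467, 412, 341 and 254 CPM. Srsf6 had 458, 417, 434 and 219 CPM, with lymphomas 1 to 3 nearly level. Srsf9 (182, 145, 105 and 52.2 CPM) and Srsf10 (244, 195, 198 and 111 CPM) completed the group of 7 SR protein genes that were highest in lymphoma 1 and lowest in lymphoma 4. In these last 5 genes the spread ran from 1.84-fold for Srsf7 to 3.43-fold for Srsf9.

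Srsf4, Srsf5 and Srsf11 departed from that order. Srsf4 had 60.0, 71.5, 226 and 62.8 CPM in lymphomas 1 to 4, so that lymphoma 3 stood 3.13-fold above the nearest library while the other libraries differed little. Srsf5 had 151, 232, 272 and 206 CPM and Srsf11 193, 208, 330.2 and 228 CPM, both highest in lymphoma 3 and lowest in lymphoma 1. For Srsf4, 65.4% of the 50-base windows are shared with other genes' transcripts and 43.0% of its exonic length overlaps other genes' exons. Its FPKM of 12.6, 16.6, 54.7 and 14.1 also put lymphoma 3 highest. Srsf12 was near the floor, with 4, 3, 0 and 7 counts.

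The hnRNPs are abundant nuclear proteins that coat pre-mRNA, and many of them repress splice sites. Hnrnpab (chromosome 11, 51600100 to 51606847, minus strand of GRCm38) had the largest lymphoma 4 difference of the class, with 1963, 1437, 1428 and 273 CPM in lymphomas 1 to 4, a 7.16-fold spread around 1276 ± 713 CPM (SD, n = 4). For Hnrnpab, 29.0% of the 50-base windows occur in other genes' transcripts and 29.1% of the exonic length overlaps other genes' exons. Hnrnpa0 had 1043, 874, 881 and 228 CPM and Hnrnpa2b1 1659, 1372, 1504 and 544 CPM. In these 3 genes lymphomas 1 to 3 lay well above lymphoma 4, which was also at least 2-fold below the nearest library for Hnrnpa3 (102, 81.4, 86.0 and 38.6 CPM) and Hnrnpd (443, 353, 664 and 175 CPM). Hnrnpk, a binder of cytosine-rich RNA, had 1229, 957, 759 and 557 CPM, and Hnrnpc, a binder of uridine tracts, had 817, 630.2, 432 and 339 CPM. Hnrnpm had 753, 571, 539 and 283 CPM. These 3 genes also had their extremes in lymphomas 1 and 4, by smaller gaps. Of the binders of guanosine runs, Hnrnpf had 982, 774, 523 and 344 CPM, with 67.3% of its 50-base windows shared with other genes, and Hnrnph2 had 133, 111, 111 and 75.2 CPM. Both followed the same order at their ends, over spreads of 2.85-fold and 1.76-fold.

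A further 8 Hnrnp genes were highest in lymphoma 3. Hnrnpdl, a paralog of Hnrnpd, had 138, 176, 589 and 134 CPM in lymphomas 1 to 4, and the lymphoma 3 level was 3.33-fold above the nearest library. Hnrnph1 had 367, 408, 665 and 408 CPM and Hnrnpul1 159, 191, 384 and 154 CPM, where lymphoma 3 was again well above the others. Hnrnpl, which binds CA repeats and is the close relative of Hnrnpll, had 453, 421, 624 and 279.6 CPM. Hnrnpu, a nuclear scaffold protein, had 514, 523, 814 and 446 CPM and Hnrnph3 22.9, 28.1, 45.5 and 37.8 CPM. In these 3 genes, and in Hnrnpr and Hnrnpd, lymphoma 3 was highest by smaller gaps, and Hnrnph3 was lowest in lymphoma 1. Hnrnpr was the steadiest Hnrnp gene, at 132, 133, 140.3 and 103 CPM and a 1.36-fold spread. Hnrnpul2 ran the other way from most members, with 163, 203, 215 and 258 CPM, lowest in lymphoma 1 and highest in lymphoma 4, over a 1.58-fold spread.

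Hnrnpll, a regulator of the alternative exons of the leukocyte protein CD45 (Ptprc) in lymphocytes, had by far the widest spread of the members. Hnrnpll (chromosome 17, 80029487 to 80062334, minus strand of GRCm38) had 169.6, 121, 2.45 and 18.5 CPM in lymphomas 1 to 4, which is 1343, 1083, 25 and 168 counts. The exact Poisson 95% interval was 1.59 to 3.62 CPM in lymphoma 3 and 15.8 to 21.5 CPM in lymphoma 4, and these intervals cover counting error only. The spread was 49.4-fold in CPM + 1, and lymphoma 3 lay 5.64-fold below lymphoma 4. The FPKM of 29.96, 24.5, 0.486 and 3.23 put the libraries in the same order, and 0% of the gene's 50-base windows occur in other genes' transcripts. Its high libraries were those with the higher summed T cell markers given above. The T cell receptor component Cd3d had 653, 480.4, 0.981 and 55.1 CPM, and 8 of 10 T cell markers were lowest in lymphoma 3. The other 2 were lowest in lymphoma 4, where Lck had 879, 665, 315 and 145 CPM in lymphomas 1 to 4 and Zap70 433, 318, 482 and 81.7 CPM. The summed T cell markers were near equal in lymphomas 3 and 4, at 881 and 897 CPM, whereas Hnrnpll was not. How far T cells, malignant or not, account for the Hnrnpll counts was not tested.

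Hnrnpa1, an hnRNP that counters SR proteins at splice sites and is abundant in most cells, was near the floor in the count table but not in the FPKM table. Its counts were 9, 57, 137 and 145, or 1.14, 6.36, 13.4 and 15.9 CPM in lymphomas 1 to 4, whereas its FPKM were 205, 182, 277 and 78.9. The tables also gave different orders, with lymphoma 4 highest by CPM and lowest by FPKM. The CPM per kilobase of exon came to 1.57% of the FPKM, against 11.9% for the next lowest member and a median of 74.4%. Of the 50-base windows of its longest coding transcript, 46.4% occur in transcripts of 19 other genes, 18 of them pseudogenes. How the deposited counts treated reads with several placements is not given in the sources used here, and whether this accounts for the low counts was not tested. The CPM of Hnrnpa1 is therefore not read as its expression, and it passed the filter only through lymphomas 2 to 4. Elsewhere the tables gave close orders, with the same lowest library for 48 of 53 members and the same highest library for 44.

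**Figure D4:**
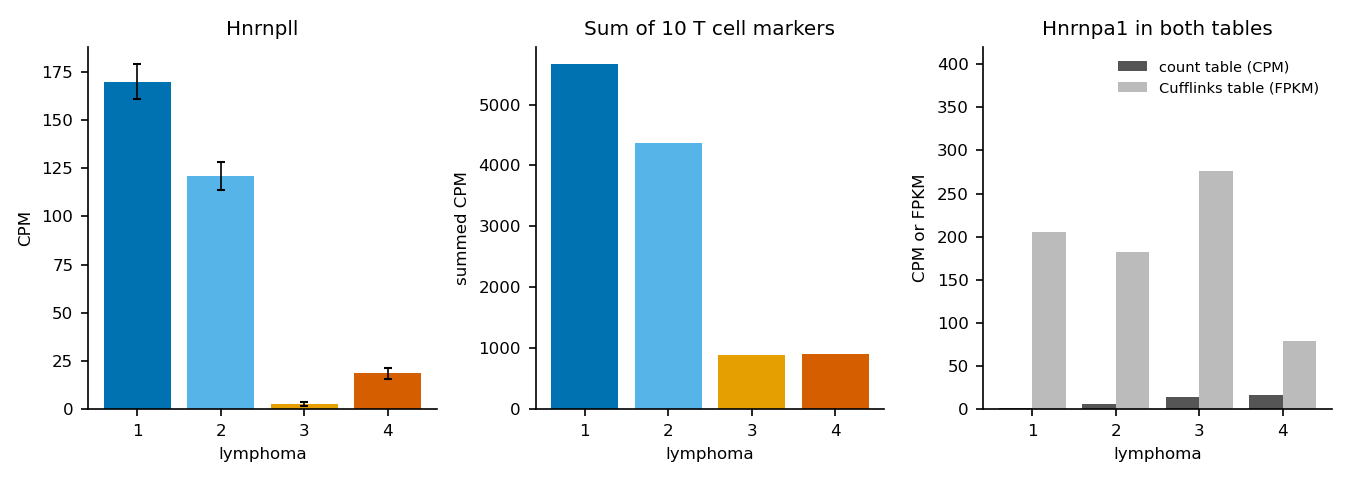
Left, CPM of Hnrnpll in each library with exact Poisson 95% intervals; middle, summed CPM of 10 T cell markers; right, Hnrnpa1 as CPM and as FPKM. Hnrnpll falls from 169.6 CPM in lymphoma 1 to 2.45 in lymphoma 3, and for Hnrnpa1 lymphoma 4 is highest by CPM, at 15.9, and lowest by FPKM, at 78.9.

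Members with a lower lymphoma 4 difference tended to have a shorter exonic length, counted over all annotated exons of a gene and not per transcript. Across the 53 members, the Spearman correlation of exonic length with the lymphoma 4 difference was 0.58, and without the 7 Sm ring genes it was 0.45 (n = 46). It was 0.26 across the 13409 genes with a length and 0.59 across 104 other splicing genes. Over the same 53 members the correlation was -0.49 with the lymphoma 1 difference, -0.53 with that of lymphoma 2 and 0.04 with that of lymphoma 3, and these differences share their libraries. These are correlations across genes of the same libraries, given as a description. All 6 members under 2000 bases were lowest in lymphoma 4, against 46.6% of all genes of that length, with a median difference of -1.86 against -0.50. Of the 21 members of 5000 bases or more, 76.2% were lowest there, against 21.8% of all such genes, with a median difference of -0.81 against 0.37. The members were thus below all genes in both the shortest and the longest range. Sf3b1, with 11370 exonic bases, was highest in lymphoma 4, while Sf3b3, with 10919 bases, was -0.38 log2 units from the mean of the other libraries. Of the 4 members above 0, Hnrnpa1 and Hnrnph3 had 3153 and 3151 exonic bases, below the member median of 3988. The counts of Hnrnpa1, as said above, are not read as its expression. The part of exonic or transcript length in the low lymphoma 4 values was not tested.

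**Figure D5:**
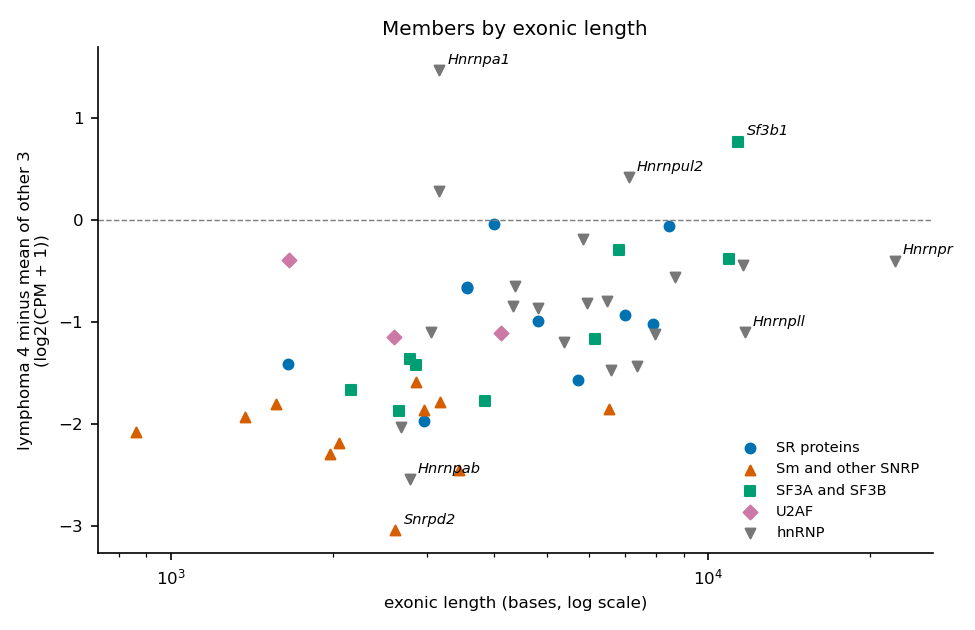
Exonic length in bases on a log axis against the difference of lymphoma 4 from the mean of the other 3 libraries on the log2(CPM + 1) scale, 1 point per member, coloured by class. Shorter members tend to lie lower, with the Snrp genes at the lower left and Sf3b1 above 0 at 11370 bases.

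Other genes of the splicing pathway were also often low in lymphoma 4. A list of 105 further spliceosome components and regulators had 104 genes in the table, all of which passed the filter, and 56 of them (53.8%) were lowest in lymphoma 4, against 33.2% of all genes. Their median lymphoma 4 difference was -0.36. The LSM ring, the Sm-like ring of the U6 snRNA, came nearest to the Snrp genes with a median of -1.60 and 7 of 7 genes below 0. Medians were -0.88 for the minor spliceosome, -0.77 for U1 and tri-snRNP proteins, -0.44 for 28 other splicing regulators, -0.25 for other branch-site factors and -0.05 for the Prp19 complex and catalytic steps. SR-related proteins and SR kinases ran the other way at 0.64, with a lymphoma 1 median of -1.34. Of these, Srrm2, a large nuclear speckle protein, had 57.9, 322, 387 and 1215 CPM in lymphomas 1 to 4, a 20.7-fold spread. Zrsr1 and Ptbp2 had the next largest spreads of the list, 12.8-fold and 6.06-fold, while Snw1 and Puf60 varied least at 1.11-fold and 1.20-fold.

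As a share of all counts, the 55 members took 1.83% in lymphoma 1 (Wilson 95% interval 1.82% to 1.84%), 1.72% in lymphoma 2 (1.71% to 1.73%), 2.05% in lymphoma 3 (2.04% to 2.06%) and 1.05% in lymphoma 4 (1.05% to 1.06%). This share does not depend on TMM scaling, and it was lowest in lymphoma 4. The Hnrnp genes made up the largest portion, at 0.943, 0.900, 1.11 and 0.551% of all counts in lymphomas 1 to 4.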

How the data were processed

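Whole-number counts per gene were deposited by the authors, with STAR 2.4.2a and mm10 named per the submitters' processing notes. A second deposited table names no unit and was read as FPKM, since Cufflinks 2.2.1 is named per the submitters' processing notes. Of its columns, 5 match no sample label and were not used. From the counts, 26 rows whose names had become dates (0.191% to 0.201% of counts) were left out. Gene annotation, strandedness and filters were not given in the sources used here.

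CPM used TMM factors (edgeR 4.0.16, R 4.3.3) over the 13543 genes with 1 CPM or more, before scaling, in at least 1 library, and log2 values a pseudocount of 1 CPM. Genes standing apart needed a 2-fold gap in CPM + 1 and 10 CPM in the high library or libraries. Single samples form 1 group, so size rules replaced tests. The rules were tried on simulated data with changes in lymphomas 1 to 3 only, less variation than in these libraries and no TMM scaling. That simulation therefore says nothing about calls in lymphoma 4. Exonic lengths are unions of GENCODE M21 exons (GRCm38), to which all 55 members matched, and shared windows were sought on both strands. Genes named are, per class, the highest mean and the largest and smallest spread, the 5 largest and 5 smallest spreads, members standing apart or not passing, Srsf2, Sf3b1 and U2af1, and from the other list the 3 largest and 2 smallest spreads; other members were named after their values were seen. The members and lists were chosen with earlier results of these data known. Alternatives were DESeq2 1.42.0 size factors, library totals, a pseudocount of 0.25 CPM, no filter, a filter at a mean of 5 CPM, the FPKM table, 2-fold, 4-fold and 8-fold rules, and each library left out. Figures and tables were made with Python 3.11.15.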

Additional observations from a re-analysis of the deposited data

Results flagged for a closer look

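In 5 of the 53 members, lymphoma 3 lay far from the other 3 libraries, measured as the gap to the nearest library over the whole range of CPM and set against Dixon's critical value for 4 samples. The lymphoma 3 values were 589 CPM for Hnrnpdl, 665 CPM for Hnrnph1, 384 CPM for Hnrnpul1, 406 CPM for Sf3b2 and 226 CPM for Srsf4. In all 5 the value was high, and 0 members were set apart in this way by a low value in lymphoma 4. The share of all genes set apart by a low lymphoma 4 value was not computed, so this 0 has no background beside it. The share of counts in the Sf3a and Sf3b genes was set apart in the same way, at 0.237% in lymphoma 3. Over all 13543 genes, the same rule set lymphoma 3 apart as high in 5.55%, against 9.43% of the members. In any library and either direction, the rule flagged 12.8% of all genes, while these 5 were the only members flagged. Chance alone flags about 1 in 20 groups, and 53 genes were screened.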

How the results depend on the processing

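The low lymphoma 4 class medians held their direction in every setting tried. Single members did not all do so: with plain library totals some, such as Hnrnpr and Hnrnpu, were no longer lowest in lymphoma 4. The SR protein median moved from -0.96 to -0.66 with plain library totals, a scaling that shifted the median of all genes by 0.26 (FPKM table -0.15, mean CPM of 5 or more -0.11). The count of 4-fold spreads (19) became 10 with library totals (all genes 36.8%), 41 under a 2-fold rule and 2 under an 8-fold rule, and 3 to 19 with 1 library left out. The log2 median spread then ran from 0.62 to 1.53. Lymphoma 4 stood apart below in 4 members under a 4-fold gap (all genes 2.12%), against 22. Lymphoma 1 was highest for 22 of the 36 members with little shared sequence, against 29.4% of all genes, a selection made after seeing the data. Lymphoma 3 was highest for 25 members with library totals, 23 in the FPKM table and 13 to 23 with 1 library left out. The share over all genes was not computed for these lymphoma 3 counts. The share of counts outside the 100 most abundant genes was 2.57%, 2.25%, 2.45% and 1.23% in lymphomas 1 to 4, so that lymphoma 1 and not lymphoma 3 was highest. The Hnrnpa1 difference reversed in the FPKM table, to 0.37 in lymphoma 1 and -1.45 in lymphoma 4. The cause of these changes was not tested. The gene counts of 4, 3, 0 and 7 for Srsf12 and 0 for Snrpn are too few to compare libraries. No paired analysis was possible because the samples form 1 group.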
